A study of Mus musculus with 8 samples.

Results

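Cell junction and surface adhesion genes of epithelia were examined in RNA-seq of activated mouse B cells that lack Prmt5. The set held 10 of the 39017 genes in the deposited gene table, found by symbol: Perp, Zfp750, Pvrl4, Pvrl1, Pvrl2, Plekha7, Mcam, Eng, Cdh1 and Epcam. They were chosen because several had been seen to be higher in these same Prmt5-null libraries, so their differences between the genotypes are given as a description and without a test. The set as named holds genes raised without Prmt5, and for 3 of them, Pvrl2, Cdh1 and Epcam, the values below do not bear that name out. Another 126 genes of the same families served for comparison. The cells were iGBs, splenic B cells of C57BL6/J mice grown for 4 days with IL-4 at 1 ng per mL on 40LB feeders, a fibroblast line that displays CD40L and secretes BAFF, and then separated from the feeders by elutriation. The Prmt5-null group came from 4 mice with floxed Prmt5 and Cγ1-cre (PRMT5-10617, PRMT5-10618, PRMT5-10770 and PRMT5-10771), and the control group from 4 mice with the Cγ1-cre driver alone (CTRL-10650 and CTRL-10370, and CTRL-10596 and CTRL-10597). All 8 mice thus carried the Cre driver, which acts in activated B cells, so that Prmt5 was excised only after activation and cells that escaped excision, if any, remain in the Prmt5-null libraries.

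Epithelial cells hold together through adherens junctions, tight junctions and desmosomes. Adherens junctions use cadherins, with E-cadherin, encoded by Cdh1, as the epithelial form, and nectins, immunoglobulin-like proteins encoded by the Pvrl genes, which are called Nectin genes in current annotation. Cadherins bind catenins, nectins bind afadin, and linkers such as Plekha7 tie these complexes to the cytoskeleton. Perp is a tetraspan membrane protein needed for stable desmosomes and is a target of p53 and of its relative p63, and Zfp750 is a transcription factor of epidermal differentiation downstream of p63. Mcam, also known as CD146, and Epcam are adhesion molecules of the cell surface, and Eng encodes endoglin, a coreceptor for TGF-beta ligands best known from endothelium. B cells form no epithelial junctions, but single junction proteins occur on lymphocytes.

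The libraries held 42752293 to 47174851 reads on genes in the Prmt5-null group and 36731721 to 50366174 in the control group. Prmt5, the targeted gene, averaged 11774 ± 908 normalized counts in control and 1538 ± 436 in Prmt5-null iGBs (SD, n = 4 each; log2 fold change -2.98, adjusted p = 6.14e-06 from limma). Fibroblast markers, which the feeder cells express, summed to 8332 to 14427 normalized counts in the Prmt5-null and 5545 to 9526 in the control libraries, and limma called 4 of 16 tested as higher. Their mean log2 level was 8.47, 7.73, 8.33 and 8.04 in the Prmt5-null libraries PRMT5-10617, PRMT5-10618, PRMT5-10770 and PRMT5-10771, and 7.97, 7.25, 7.21 and 7.39 in the control libraries CTRL-10650 and CTRL-10370, and CTRL-10596 and CTRL-10597. The libraries also split into sides along the second principal component, which held 25.8% of the variance. The first side held PRMT5-10617 and PRMT5-10618 and CTRL-10596 and CTRL-10597, and the second side held the other 4 libraries. The design text of the deposited series assigns the samples to 2 experiments, but no label ties a library to either. Whether the sides match the experiments was not tested. B cell markers summed to 161759 to 193272 normalized counts in the Prmt5-null and 159997 to 184107 in the control libraries.

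Of the 10 genes, in 7 all Prmt5-null libraries exceeded all control libraries. In each of these the difference was more than 1.5-fold. They were Perp, Zfp750, Pvrl4, Pvrl1, Plekha7, Mcam and Eng. The groups overlapped in the other 3, Pvrl2, Cdh1 and Epcam. For scale, limma called 3.49% of all 16250 genes tested higher and 2.99% lower in Prmt5-null iGBs, where a call needed both an adjusted p under 0.05 and a 1.5-fold difference, and in 9.67% all Prmt5-null libraries exceeded all controls. The median log2 fold change was 1.66 over the 10 genes and 0.00 over all genes tested. Because the genes were chosen on this contrast, nothing is read from these shares. The values are bulk levels, in which fewer cells with a transcript and less of the transcript per cell cannot be told apart.

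**Figure D1:**
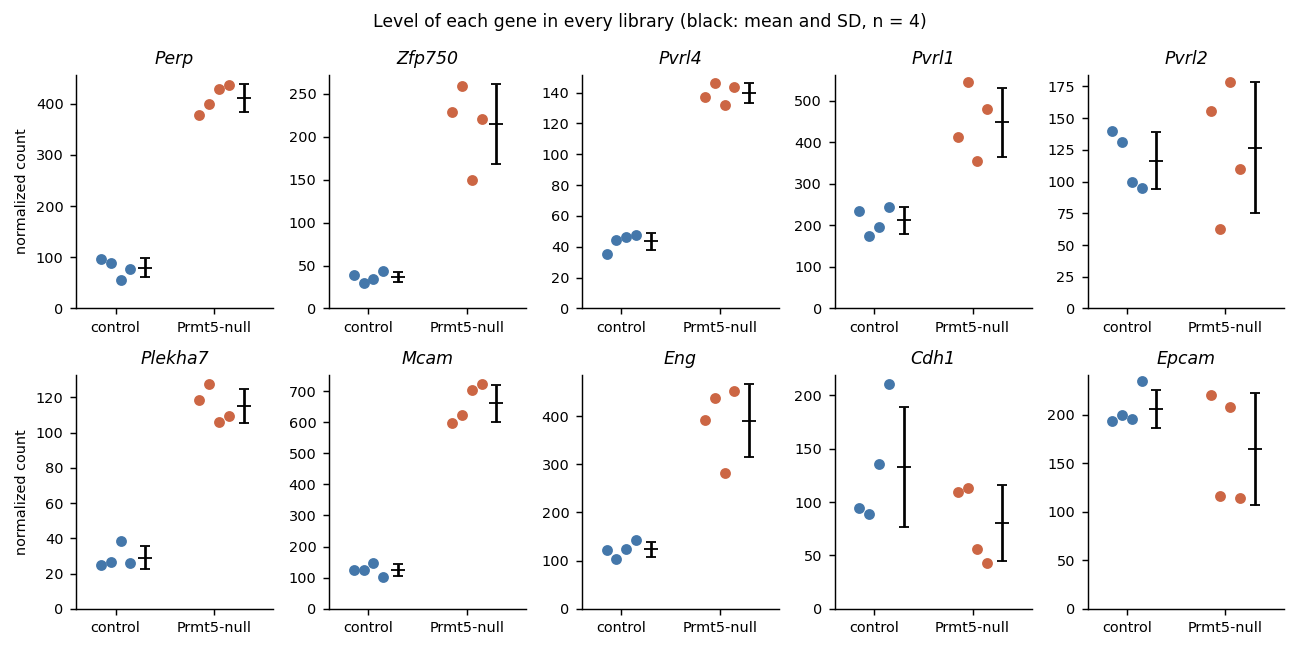
Level of the 10 genes in normalized counts on the y axis of each panel, which starts at 0. Points are the 4 control and the 4 Prmt5-null libraries, and black marks give the mean and SD. In 7 panels the groups lie apart, with Perp at 379 to 437 against 55.5 to 96.9, and in the panels of Pvrl2, Cdh1 and Epcam they overlap.

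Perp lies on chromosome 10 from 18845020 to 18857073 of GRCm38. Its normalized counts were 379, 400, 428 and 437 in the Prmt5-null libraries PRMT5-10617, PRMT5-10618, PRMT5-10770 and PRMT5-10771, and 96.9, 89.2, 55.5 and 77.0 in the control libraries CTRL-10650 and CTRL-10370, and CTRL-10596 and CTRL-10597; libraries are given in this order throughout. The lowest Prmt5-null library was thus 3.91 times as high as the highest control library. The means were 411 ± 26.8 and 79.7 ± 18.0 (SD, n = 4 each), 5.16-fold apart, with a log2 fold change of 2.38 (standard error, SE, 0.17). The Prmt5-null libraries varied little among themselves, with an SD of 6.52% of the mean, against 22.7% in the controls.

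Zfp750 lies on chromosome 11 from 121510978 to 121519333. It had 229, 259, 149 and 220 normalized counts in the Prmt5-null libraries and 38.8, 29.4, 34.0 and 43.8 in the control libraries. All 4 Prmt5-null libraries were far above the controls, with PRMT5-10770 the lowest of them. The means were 214 ± 46.5 and 36.5 ± 6.20 (SD, n = 4 each), 5.87-fold apart, and the log2 fold change of 2.51 (SE 0.21) was the largest of the 10 genes and the 20th largest of all genes tested.

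Among the nectins, Pvrl4 and Pvrl1 were higher in the Prmt5-null libraries and Pvrl2 was not. Pvrl4 encodes nectin-4, which is found in embryonic and epidermal tissues and lies on chromosome 1 from 171370099 to 171388598. It had 137, 146, 132 and 144 normalized counts in the Prmt5-null and 35.5, 44.6, 46.6 and 47.4 in the control libraries. Its Prmt5-null values were the tightest of the set, at 140 ± 6.41 against 43.5 ± 5.45 (SD, n = 4 each), 3.21-fold apart, with a log2 fold change of 1.67 (SE 0.17).

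Pvrl1 encodes nectin-1, a partner of nectin-4 and also a receptor that herpes simplex virus uses to enter cells, and lies on chromosome 9 from 43743984 to 43807461. It had 413, 544, 354 and 479 normalized counts in the Prmt5-null and 234, 174, 196 and 244 in the control libraries. The gap between the groups was the narrowest of the 7, with the lowest Prmt5-null library at 1.45 times the highest control library. The means were 448 ± 82.3 and 212 ± 32.7 (SD, n = 4 each), a log2 fold change of 1.07 (SE 0.16).

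Pvrl2 encodes nectin-2, a ligand of the lymphocyte receptors Cd226 and Tigit, and lies on chromosome 7 from 19716644 to 19750483. Its normalized counts of 156, 62.3, 179 and 110 in the Prmt5-null libraries enclosed those of the controls, 140, 131, 99.4 and 94.8. The log2 fold change was 0.04 (SE 0.29). The fibroblast marker level went partly along with these values: PRMT5-10617 and PRMT5-10770 were the highest Prmt5-null libraries for both and PRMT5-10618 the lowest for both, and CTRL-10650 was the highest control library for both, whereas CTRL-10597 was second in the markers and lowest in Pvrl2. The part of the feeder cells in the Pvrl2 values was not tested.

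Plekha7, a linker that joins the catenin of the cadherin complex to the minus ends of microtubules, lies on chromosome 7 from 116123485 to 116308376. It had 119, 128, 106 and 109 normalized counts in the Prmt5-null and 24.8, 26.7, 38.5 and 26.1 in the control libraries. The library CTRL-10596 stood above the other 3 controls but far below every Prmt5-null library. The means were 115 ± 9.72 and 29.0 ± 6.38 (SD, n = 4 each), 3.97-fold apart, with a log2 fold change of 1.97 (SE 0.20).

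Mcam, an adhesion molecule of the immunoglobulin family found on endothelium, smooth muscle and some activated lymphocytes, lies on chromosome 9 from 44134469 to 44142727. It had 597, 622, 702 and 721 normalized counts in the Prmt5-null and 124, 126, 149 and 102 in the control libraries. The Prmt5-null level was the highest mean count of the 10 genes, at 661 ± 60.4 against 125 ± 19.1 (SD, n = 4 each). The log2 fold change was 2.40 (SE 0.14), the smallest standard error of the set, and the lowest Prmt5-null library was 4.02 times as high as the highest control library, the widest gap of the 10.

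Eng lies on chromosome 2 from 32646595 to 32682669. It had 393, 437, 282 and 452 normalized counts in the Prmt5-null and 123, 103, 124 and 143 in the control libraries. As in Zfp750, Pvrl4, Pvrl1 and Plekha7, library PRMT5-10770 was the lowest of the Prmt5-null group and still above every control. The means were 391 ± 76.7 and 123 ± 16.3 (SD, n = 4 each), 3.17-fold apart, with a log2 fold change of 1.64 (SE 0.17). Exons of Mcam share 17 bases with the antisense gene Gm10687, those of Eng 61 bases with Fpgs on the opposite strand, and those of Pvrl2 135 bases with the antisense gene Gm20512, which are 0.51%, 1.51% and 3.86% of their exonic lengths. The strand setting of the counting is not given in the sources used here, so reads in those stretches may belong to either gene.

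Cdh1, the gene of E-cadherin, lies on chromosome 8 from 106603351 to 106670246. It had 109, 113, 56.3 and 43.0 normalized counts in the Prmt5-null and 94.8, 89.2, 136 and 211 in the control libraries. The 4 libraries on the first side of the second principal component all had more Cdh1 than the 4 on the second side, whatever their genotype. Over all libraries the means were 80.5 ± 36.1 and 133 ± 56.2 (SD, n = 4 each), with overlap and a log2 fold change of -0.75 (SE 0.35). Within the first side Cdh1 was -0.60 and within the second side -0.89 on the log2 scale, Prmt5-null minus control, with 2 libraries of each genotype per side, and in both the Prmt5-null libraries were the lower ones.

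Epcam lies on chromosome 17 from 87635979 to 87651129. It had 220, 116, 208 and 114 normalized counts in the Prmt5-null and 194, 200, 195 and 235 in the control libraries. Here PRMT5-10618 and PRMT5-10771 lay below all controls, and PRMT5-10617 and PRMT5-10770 lay within their range. The means were 165 ± 57.3 and 206 ± 19.3 (SD, n = 4 each), with a log2 fold change of -0.38 (SE 0.22). As for Pvrl2, PRMT5-10617 and PRMT5-10770 had the most Epcam and the most fibroblast marker RNA of the Prmt5-null group, whereas the control libraries showed no such order, with CTRL-10650 the lowest in Epcam and the highest in the markers. The part of feeder RNA in this was not tested. For the 7 genes whose groups lay apart, the difference must have the same sign on both sides of the second principal component. Only its size is described here. On the first and second side it was 2.55 and 2.21 on the log2 scale for Perp, 2.62 and 2.39 for Zfp750 and 1.11 and 1.03 for Pvrl1.

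**Figure D2:**
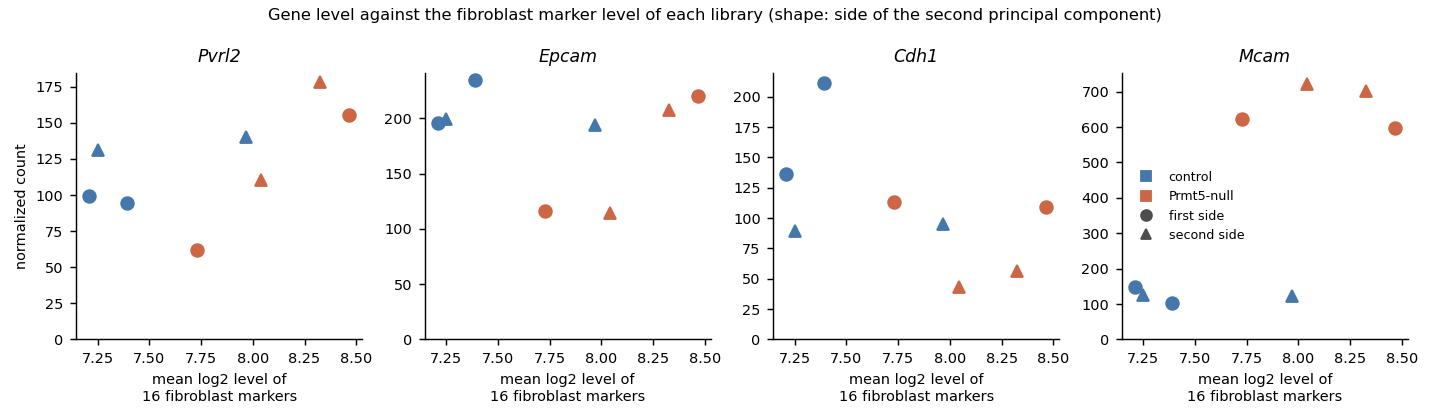
Normalized counts of Pvrl2, Epcam, Cdh1 and Mcam on the y axes against the mean log2 level of 16 fibroblast markers in each library on the x axes. Colors give the genotype and shapes the side of the second principal component. Within the Prmt5-null group Pvrl2 and Epcam are highest in the 2 libraries with the highest marker level, Cdh1 is higher on the first side, and Mcam separates the genotypes, at 597 to 721 against 102 to 149.

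The sequence before the start site was looked up for all 10 genes because 7 were higher in the Prmt5-null libraries while Pvrl2, Cdh1 and Epcam were not. The RefSeq promoter table of GRCm38.p6 matched 5 of the 10, Pvrl4, Pvrl2, Mcam, Eng and Epcam; the other 5 are Perp, Zfp750, Pvrl1, Plekha7 and Cdh1. The 250 bases before each RefSeq start were searched on both strands for the core promoter motif TATAAA, the Sp1 binding motif GGGCGG, the box CCAAT to which NF-Y binds, the p53 consensus and the E2 box CACCTG, which the Zeb and Snai repressors of epithelial genes bind. The sequences are printed 5′ to 3′ on the strand of the gene up to the first base that GENCODE annotates as an exon of it, with matches to GGGCGG or CACCTG on either strand in capitals.
Pvrl4 (chr1:171369923-171370098, plus strand): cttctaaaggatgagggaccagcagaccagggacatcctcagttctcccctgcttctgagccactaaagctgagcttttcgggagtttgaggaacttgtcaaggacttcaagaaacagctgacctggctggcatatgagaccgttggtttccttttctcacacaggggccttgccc
Eng (chr2:32646345-32646594, plus strand): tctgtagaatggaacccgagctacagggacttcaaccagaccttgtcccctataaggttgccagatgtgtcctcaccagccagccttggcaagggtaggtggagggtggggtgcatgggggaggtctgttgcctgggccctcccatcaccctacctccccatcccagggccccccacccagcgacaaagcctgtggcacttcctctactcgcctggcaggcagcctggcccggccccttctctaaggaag
Mcam (chr9:44134408-44134468, plus strand): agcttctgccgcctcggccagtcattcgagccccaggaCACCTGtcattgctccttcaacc
Pvrl2 (chr7:19749574-19749823, minus strand): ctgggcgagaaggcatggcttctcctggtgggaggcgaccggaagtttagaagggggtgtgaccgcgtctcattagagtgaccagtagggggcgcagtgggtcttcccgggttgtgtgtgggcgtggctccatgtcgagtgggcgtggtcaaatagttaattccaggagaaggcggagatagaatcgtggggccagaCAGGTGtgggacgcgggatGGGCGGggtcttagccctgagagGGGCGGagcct
Epcam (chr17:87635729-87635978, plus strand): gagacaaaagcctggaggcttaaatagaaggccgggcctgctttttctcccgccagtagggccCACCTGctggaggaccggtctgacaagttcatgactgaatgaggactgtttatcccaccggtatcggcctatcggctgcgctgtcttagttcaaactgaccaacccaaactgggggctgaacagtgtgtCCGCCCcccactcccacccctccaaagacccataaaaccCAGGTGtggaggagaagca

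Neither Pvrl4 nor Eng, both higher in Prmt5-null iGBs, held any of the motifs. Epcam and Pvrl2, which were not higher, held 2 and 1 CACCTG matches. Mcam, which was higher, held 1 as well, 212 to 207 bases before the RefSeq start. GGGCGG occurred 5 times in the Mcam window, 2 times in that of Pvrl2 and 1 time in that of Epcam; the Mcam matches lie in the 189 bases that GENCODE places in the first exon and that are not printed. The Pvrl2 window directly precedes 1 annotated exon, but in GENCODE 1 other form of the gene starts 660 bases upstream of the window, so the window lies within an intron of that form. Neither TATAAA nor CCAAT was in any of the 5 windows, nor was the p53 consensus found. Of all 32851 promoters in the table, 17.2% held CACCTG, 32.7% GGGCGG, 33.8% CCAAT, 12.4% TATAAA and 0.0639% the p53 consensus. CpG dinucleotides numbered 25 in Mcam, 16 in Pvrl2, 8 in Epcam, 4 in Eng and 3 in Pvrl4, where the median promoter had 6. Among the promoters of higher genes there was thus both the most and the least CpG-rich of the 5. The 150 bases around the start, which reach past it, were searched as well. There CACCTG was found in Pvrl2 and Epcam and 1 CCAAT in Pvrl4. GGGCGG occurred 4 times in Mcam, 3 times in Pvrl2 and 1 time in Epcam. No match says only that these letters are not in this window.

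Levels of different genes were compared per kb of exon, which corrects for length. In control iGBs Epcam was the most abundant of the set, with 93.8 ± 8.80 normalized counts per kb (SD, n = 4), and no library of it fell within the range of the next gene. Perp (40.8), Pvrl1 (37.5), Mcam (37.3), Pvrl2 (33.3), Eng (30.5) and Cdh1 (29.0 normalized counts per kb) followed, and neighbours in this order overlapped over the libraries. Pvrl4 (11.6) and Zfp750 (11.3) overlapped each other and lay below Cdh1 and the rest. Plekha7 was the lowest, at 2.24 ± 0.494 normalized counts per kb.

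In Prmt5-null iGBs the order was another. Perp, at 211 ± 13.7, and Mcam, at 197 ± 18.0 normalized counts per kb (SD, n = 4 each), overlapped each other and stood above all the others. Eng (96.6), Pvrl1 (79.2), Epcam (75.0) and Zfp750 (66.3 normalized counts per kb) came next with overlap between neighbours, so that Epcam moved from the first place to the fifth. Pvrl4 (37.3), Pvrl2 (36.2) and Cdh1 (17.6 normalized counts per kb) were lower, and Plekha7, although 3.97-fold higher than in controls, was again the lowest at 8.92 ± 0.752, with its libraries overlapping those of Cdh1. Exonic lengths here join all annotated transcripts of a gene, from 1952 bases for Perp to 12933 for Plekha7, and understate the level of a gene with long exons that the cells do not use.

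**Figure D3:**
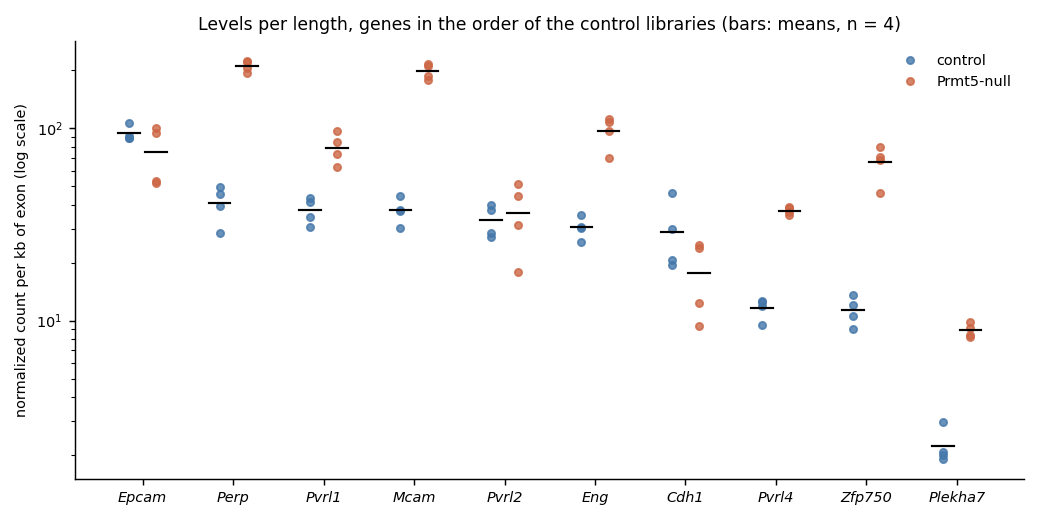
Normalized counts per kb of exon on a log scale for each gene, ordered by the mean of the control libraries. Points are libraries and bars are means of 4. In controls Epcam is the highest at 93.8 and in Prmt5-null libraries Perp at 211, with Plekha7 the lowest in both.

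The changes were recomputed with other settings, among them each library left out in turn and the fibroblast marker level as a covariate. That level was itself higher on average in the Prmt5-null group, so the covariate and the genotype overlap. A call lost with the covariate may reflect lower power, and its cause was not tested. In all 19 alternatives the same 7 genes kept a change of at least 1.5-fold. The genes were chosen on this contrast in these same libraries, so this is a description and no support for the change. The log2 fold change lay between 2.16 and 2.48 for Perp, between 2.39 and 2.67 for Zfp750, between 2.31 and 2.49 for Mcam and between 0.97 and 1.18 for Pvrl1. With the fibroblast covariate it was 2.16 for Perp, 2.58 for Zfp750, 1.91 for Pvrl4, 1.15 for Pvrl1, 2.21 for Plekha7, 2.46 for Mcam and 1.78 for Eng. Pvrl2 moved from 0.04 to -0.76 and Epcam from -0.38 to -0.81 on the log2 scale with this covariate. Without library PRMT5-10618 the log2 fold change of Pvrl2 was 0.34, and over the 8 fits that each left out 1 library it ranged from -0.16 to 0.34, so its sign depended on single libraries.

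**Figure D4:**
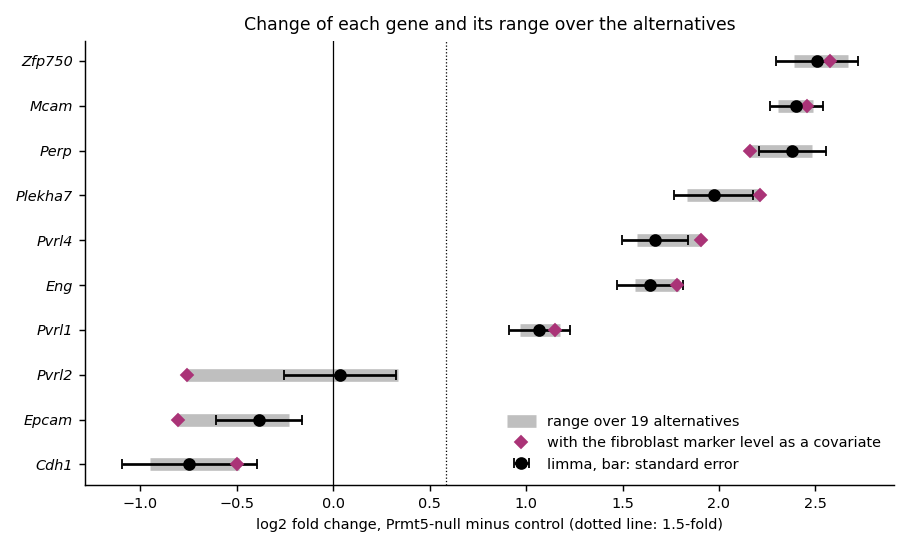
Log2 fold change, Prmt5-null minus control, of the 10 genes on the x axis. Black points and bars give the limma estimate and its standard error, grey bars the range over 19 alternatives, and diamonds the fit with the fibroblast marker level as a covariate. The 7 genes whose groups lie apart stay right of the dotted line at 1.5-fold, and Pvrl2 spans 0.

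To see whether other genes of these families differed between the genotypes, 126 of them were read from the same limma fit. They are called further junction genes here, but the lists go by family and also hold genes that are not parts of junctions. Of these, 71 averaged at least 10 normalized counts and were tested, and 10 of the other 55 were at 0 in all libraries. limma called 3 higher and 4 lower in Prmt5-null iGBs and left 64 uncalled, which is 4.23% higher and 5.63% lower beside 3.49% and 2.99% of all genes. Of the 4 lower, 2 were the lymphocyte receptors Cd96 and Tigit. The median log2 fold change was 0.04. At an unadjusted p below 0.05, 14 (19.7%) were higher and 10 (14.1%) lower, beside 14.6% and 14.7% of all genes.

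The nectin family and its receptors held 7 tested genes. None was higher, and Pvrl3, the remaining nectin, had 34.5 against 48.1 normalized counts (log2 fold change -0.56, adjusted p = 0.272 from limma). Cd96 and Tigit, receptors of nectins and nectin-like proteins on lymphocytes, were lower. Cd96 had 734, 721, 731 and 540 normalized counts in the Prmt5-null and 1256, 1234, 1400 and 1346 in the control libraries, -0.95 on the log2 scale (SE 0.11, adjusted p = 0.000298 from limma). The groups did not overlap, with Prmt5-null the lower. Tigit, which binds nectin-2, fell by 1.26 on the log2 scale, from 59.2 to 24.0 normalized counts (adjusted p = 0.0167 from limma). Its call was lost without library CTRL-10650 (-1.10) or CTRL-10596 (-1.17) and with the fibroblast covariate (-1.67). Both receptors are best known from T cells and NK cells. Of 8 T cell markers, Cd3e was at 0 in all libraries and 3 were tested, with Lck called lower. Together the 8 summed to 357 to 505 normalized counts in the Prmt5-null and 719 to 819 in the control libraries, most of it from Lck, which had 384 against 730. Their part in the Cd96 and Tigit values was not tested.

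Among 6 tested cadherins besides Cdh1, limma called none. Cdh24 had 300.9 against 287 normalized counts, and Cdh17 55.9 against 105, a log2 fold change of -0.97 (adjusted p = 0.0653 from limma). Cdh17 was called lower with DESeq2 (-0.91) and without PRMT5-10618 (-1.23) or CTRL-10597 (-1.16), while with the fibroblast covariate its log2 fold change was -0.24. Cdh5, the cadherin of endothelium, had 52.2 against 88.0. The classical epithelial P-cadherin gene Cdh3 was at 1.4 normalized counts or less on average in both groups and was not tested.

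Among 20 tested catenins and linkers, limma called 2 higher and none lower. Camsap3, which holds the minus ends of microtubules and is brought to junctions by Plekha7, had 91.7 against 46.1 normalized counts, a log2 fold change of 0.96 (adjusted p = 0.027 from limma). Tspan33, a tetraspanin that docks at junctions through Plekha7 and Pdzd11, had 895 against 578, a log2 fold change of 0.64 (adjusted p = 0.00648 from limma). Pdzd11, named after its values were seen, had 787 against 1171 normalized counts, which at -0.57 on the log2 scale missed the fold threshold (adjusted p = 0.00171 from limma). Ctnna1 and Ctnnal1, the genes of alpha-catenin and a relative of it, missed it as well but in the other direction, at 0.47 and 0.40 on the log2 scale (adjusted p = 0.00496 and 0.00392 from limma). The Camsap3 call was lost without PRMT5-10617 (0.82) or PRMT5-10771 (0.92), without CTRL-10650 (0.94), CTRL-10370 (0.85) or CTRL-10597 (0.95) and with the fibroblast covariate (1.04). The Tspan33 call was lost without PRMT5-10770 (0.58) or CTRL-10596 (0.55) and with the covariate (0.31).

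Of 18 tested tight junction genes, limma called none higher and 1 lower. Ildr1, a protein of the contacts where 3 epithelial cells meet, had 58.5 against 131 normalized counts, a log2 fold change of -1.16 (adjusted p = 0.00709 from limma); its call was lost with the fibroblast covariate (-0.77). Of 7 tested genes of desmosomes and their plaques, 1 was higher. Envoplakin, encoded by Evpl, had 59.3, 55.1, 46.5 and 42.0 normalized counts in the Prmt5-null and 24.8, 11.6, 32.3 and 23.7 in the control libraries, a log2 fold change of 1.17 (adjusted p = 0.0263 from limma). The groups did not overlap, but the call was lost without PRMT5-10617 (1.10) or PRMT5-10618 (1.13), without CTRL-10370 (0.89), with no filter on low counts and with the covariate (1.02). The 4 tested relatives of Perp were not called, with Emp3 at 1854 against 1880 and Emp1 at 226 against 134 normalized counts. Emp1, at 0.72 on the log2 scale (adjusted p = 0.0729 from limma), was called higher with DESeq2 (0.76) and without PRMT5-10618 (0.85), and stood at 0.03 with the covariate. Of 5 tested relatives of Mcam and Epcam, Bcam was lower, with 109, 126, 128 and 142 normalized counts in the Prmt5-null and 289.7, 299.6, 245 and 295 in the control libraries. Its log2 fold change was -1.16 (adjusted p = 0.000323 from limma), against 2.40 for Mcam. The 4 tested connexin and pannexin genes, listed as gap junction genes, were not called. Panx1, the most abundant, had 1759 against 2559 normalized counts, and at -0.54 on the log2 scale missed the fold threshold (adjusted p = 0.000672 from limma), which it passed with the covariate (-0.65). Gja1, the gene of the connexin of heart and fibroblasts, had 63.6 against 32.2, a log2 fold change of 1.01 (adjusted p = 0.146 from limma), and was called higher with the sides of the second principal component as a block (adjusted p = 0.0243 from limma). With the fibroblast covariate its log2 fold change was 0.16 (adjusted p = 0.92 from limma).

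**Figure D5:**
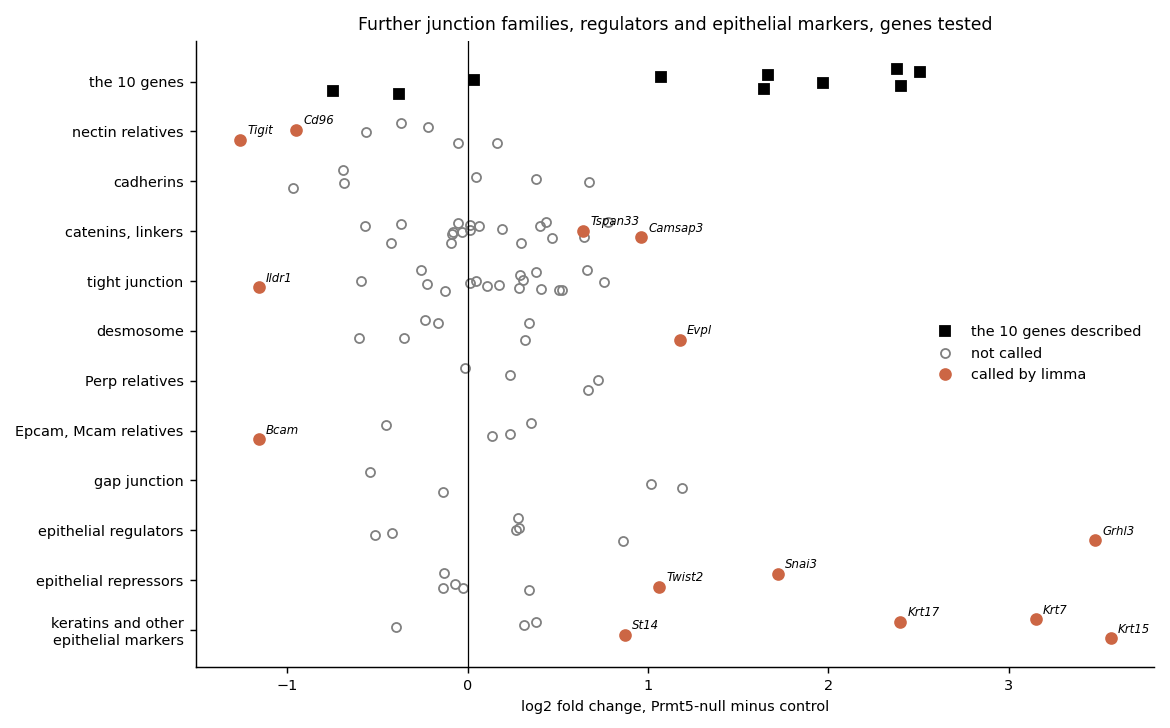
Log2 fold change, Prmt5-null minus control, of the 10 genes (squares) and of the genes tested in each further list (circles), filled where limma called them. The median over the further junction genes tested is 0.04, with 3 called higher and 4 lower, and the 4 called epithelial markers lie between 0.87 and 3.57.

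Transcription factors that drive or repress epithelial genes were read in the same way. Of 7 tested epithelial regulators, limma called Grhl3 higher and none lower. Grhl3, a grainyhead-like factor of epidermal barrier formation, had 29.6, 44.9, 21.6 and 31.8 normalized counts in the Prmt5-null and 4.31, 0, 1.79 and 3.55 in the control libraries. With a mean of 2.41 in controls it passed the filter of 10 normalized counts only through its Prmt5-null level, so its values are given as a description. The difference of 3.48 on the log2 scale (SE 0.53) rests on few reads in controls and ranged from 2.32 to 3.85 with the pseudocount; the call was lost with the fibroblast covariate (3.08). Trp63, which encodes p63 and was named after its values were seen, had 101 against 134 normalized counts (log2 fold change -0.42, adjusted p = 0.253 from limma). Of 7 tested repressors of epithelial genes, Snai3 was higher, at 41.8 against 11.9 normalized counts (log2 fold change 1.72, adjusted p = 0.00183 from limma), a call lost with the covariate (1.55). Twist2 was higher as well, at 1.06 on the log2 scale (adjusted p = 0.0323 from limma), but its call was lost without any 1 of 7 libraries (0.87 to 1.13), the exception being PRMT5-10618. It was also lost with no filter on low counts and with the covariate, where its log2 fold change was 0.40. The other 5, Tcf3, Tcf4, Zeb1, Zeb2 and Snai1, were not called. Of 18 tested genes of endoglin and its pathway, limma called Tgfb3, a ligand, higher at 0.99 on the log2 scale (adjusted p = 0.0424 from limma). That call was lost with the covariate (0.71), with quantile normalization (0.92), with no filter on low counts and without any 1 of 6 libraries (0.79 to 1.08), the exceptions being PRMT5-10618 and CTRL-10597. The receptor Acvrl1, the usual partner of endoglin, had 72.5 against 45.1 normalized counts (adjusted p = 0.11 from limma). Tgfb1, a more abundant ligand than Tgfb3, had 673 against 995 normalized counts. At -0.57 on the log2 scale it missed the fold threshold (adjusted p = 0.00418 from limma). In the other direction Acvr1b and Smad1 missed it at 0.32 and 0.51 (adjusted p = 0.0341 and 0.0113 from limma).

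Markers of epithelium itself gave a mixed picture. Of 14 markers, 7 were tested and limma called 4 higher, Krt15, Krt7, Krt17 and St14, and none lower. The most abundant, St14, encodes matriptase, a membrane protease of epithelia, and had 3073 against 1684 normalized counts, a log2 fold change of 0.87 (adjusted p = 0.000176 from limma). Muc1 was next in level, with 278 against 373 (adjusted p = 0.139 from limma). The keratin genes stand outside the naming rule and were picked with their values known. Krt15 and Krt7 averaged under 10 normalized counts in controls and passed the filter only through their Prmt5-null level, so the count of 4 is no support for a change of the list. Krt15, a keratin of basal cells, had 61.1, 67.4, 73.6 and 73.8 normalized counts in the Prmt5-null and 2.15, 7.13, 7.17 and 4.74 in the control libraries, a log2 fold change of 3.57. Krt7 had 52.6 against 5.57 and Krt17 53.9 against 10.2 normalized counts, log2 fold changes of 3.15 and 2.40. With the fibroblast covariate the log2 fold changes of Krt15, Krt7 and Krt17 were 4.27, 2.70 and 2.12.

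Krt5 was too low to be tested. It had 5.56, 20.4, 21.6 and 16.8 normalized counts in the Prmt5-null libraries and was listed at 0 in every control library, where 3 reads per library would be 2.67 to 3.55 normalized counts; the Prmt5-null mean was at least 4.53-fold higher than the highest of these floors. Krt14, the usual partner of Krt5, had 5.40 against 2.84 normalized counts and was not tested either. Krt8, Krt18 and Krt19, keratins of simple epithelium as Krt7 is, and the claudin genes Cldn3 and Cldn7 had at most 3.74 normalized counts in any library. The 14 markers summed to 3443 to 3876 normalized counts in the Prmt5-null and 1841 to 2471 in the control libraries, most of it from St14. The part of epithelial cells in the values of the 10 genes was not tested. For endothelium, the cell type best known for Mcam and Eng, Tie1 and Emcn were at 0 in all libraries and 4 of 10 markers were tested, with Egfl7 called lower and Tek higher. Tek, at 16.8 against 3.21 normalized counts, likewise passed the filter only through its Prmt5-null level. The 10 markers summed to 1407 to 1946 normalized counts in the Prmt5-null and 1897 to 2138 in the control libraries. Of 8 B cell markers 1 was called, Cd79a, which was lower at -0.74 on the log2 scale. Of 8 plasma cell markers none was called. Prdm1 and Xbp1 missed the fold threshold at -0.48 and -0.45 on the log2 scale (adjusted p = 0.0428 and 0.0305 from limma). A positive log2 fold change was seen in 3 of the 8. Of 6 tested myeloid markers 1 was called higher, Emr1.

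Across all genes with a mean of at least 50 normalized counts, those whose log2 levels over the 8 libraries were most like the mean of the 10 genes were Rbm17 (Pearson's r = 0.992), Col27a1 (0.990), Dcaf4 (0.988), RP23-220D12.12 (0.988) and Llph (0.988). With 2 groups in the data, a high r describes mainly the step between genotypes. Col27a1, a fibrillar collagen gene, had 174 against 64.5 normalized counts, the largest fold among them, and Rbm17, a splicing factor, had 9205 against 7195.

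The authors' tables of alternative splicing list 1918 events in genes with a mean above 50 normalized counts. Of all genes above that mean, 11.4% are listed. None of the 10 genes is listed, and all 10 were above that mean. Of the 48 further junction genes above it, 6 (12.5%) were listed, with 8 events. These were Pkp4 with 3 events, and Plekha5, Plekha2, Plekha1, Inadl and Camsap3 with 1 each, the last a retained intron.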

How the data were processed

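The data were RNA-seq of iGBs at day 4 from 8 mice, 4 per genotype and 1 library each. The libraries were depleted of ribosomal RNA and made with a stranded kit. The authors trimmed reads with Trimmomatic 0.32, aligned them to mm10 (GRCm38) with STAR 2.3.0e and counted uniquely mapped reads on Ensembl exons with featureCounts 1.4.4. They deposited gene counts divided by DESeq2 1.14.1 size factors, a normalized signal. All values (100%, tolerance 1e-06) came out as whole reads with 1 factor per library, which gave the depths. The authors deposited rMATS event tables with a mean signal per gene; they were used only for which genes they list, because their value lists name no library. Their p-values were not used.

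The 10 genes and all lists were chosen with earlier results of these data known. Genotypes were compared with limma 3.58.1 under R 4.3.3 (lmFit, then eBayes with an intensity trend). The input was log2(normalized count + 1) of 16250 genes averaging 10 or more, with Benjamini-Hochberg adjusted p-values. This scale understates the change of low genes. Genes were called at an adjusted p below 0.05 and at least 1.5-fold. The script was tested on simulated data. Alternatives changed the pseudocount, filter, normalization, trend, threshold and libraries, ran edgeR 4.0.16 and DESeq2 1.42.0 on the recovered reads, blocked on the sides of the second principal component, or added the fibroblast marker level as a covariate. A symbol on several rows was read from the row with the highest mean. Named from each further list were the called genes, at most 5, or the 2 most abundant where none was called, from marker lists the 2 most abundant and markers at 0, and the 5 genes most like the set. Pvrl3, Cdh3, Cdh5, Pdzd11, Ctnna1, Ctnnal1, Acvrl1, Tgfb1, Acvr1b, Smad1, Trp63 and Prdm1 stand outside it. So do the uncalled repressors, the keratins and the called markers besides St14. All of these were added once their values had been seen. Some genes of the lists are not reported here. Promoters came from RefSeq GRCm38.p6, and coordinates and exonic lengths from GENCODE M21. Tables were joined in Python 3.11.15 with pandas 2.3.3 and NumPy 2.4.6.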

Additional observations from a re-analysis of the deposited data

Results flagged for a closer look

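In 54 groups of 4 libraries, 1 for each genotype of each gene named in the set and the further lists, the highest or lowest library was compared with the gap to its nearest neighbour, and 3 stood apart; chance gives about 1 in 20. Plekha7 was at 38.5 normalized counts in CTRL-10596, against 24.8 to 26.7 in the other controls. Epcam was at 235 normalized counts in CTRL-10597, against 194 to 200 in the other controls. Cd96 was at 540 normalized counts in PRMT5-10771, against 721 to 734 in the other Prmt5-null libraries. Without the library in question the log2 fold change of Plekha7 was 2.11 in place of 1.97, that of Epcam -0.32 in place of -0.38 and that of Cd96 -0.84 in place of -0.95.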

How the results depend on the processing

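Over all genes, 1053 were called, 637 at an adjusted p below 0.01 and 396 at 2-fold or more, and 795 to 1173 with 1 library left out. With the fibroblast covariate, which overlaps with the genotype, 731 were called. The number of the 10 genes with at least 1.5-fold higher levels was 7 under all 19 alternatives. These refits reuse the libraries on which the genes were chosen, so the number is no support for the change. The number of further junction genes called higher, 3 with limma, was 3 with edgeR, 6 with DESeq2, 1 at an adjusted p below 0.01, 1 at 2-fold, 5 with the sides of the second principal component as a block and 0 with the fibroblast covariate, where 4 were higher at an unadjusted p below 0.05. With 1 library left out it ranged from 1 to 4, with 1 without PRMT5-10617 or CTRL-10370. The number called lower, 4, ranged from 3 to 6. With the covariate it was 4, without Tigit and Ildr1 but with Panx1 and another gene that was not called without it. No log2 fold change that was past the threshold changed sign. Among single genes, 38 refits lost a call and 7 gained one, and stricter thresholds took 9 further calls; the causes were not tested. No paired analysis was run because the groups share no replicate name and no label ties a library to an experiment. The planned read minimum for splicing events was not run, since inclusion levels were not used. Fits with 1 library left out kept 3 libraries in 1 group. Depth limits the low genes most: Grhl3, Krt5, Krt7, Krt15 and Krt17 had few reads in controls.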
